A study of Mus musculus with 40 samples.

Results

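The immediate early genes described here are Fos, Fosb, Junb, Fosl2, Egr1, Npas4, Nr4a1, Arc, Dusp1 and Ier2. They were chosen by name, each is a single row of the count table, and the 10 make up 10 of its 55471 genes. All 10 had enough reads to be among the 18441 genes tested.

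Messenger RNA was sequenced in adult mice, from punches of the ventral tegmental area (VTA), where many midbrain dopamine neurons lie. Repeated cross fostering (RCF) moved whole litters to a different foster dam daily on postnatal days 1 to 4, and control litters were unhandled. The 8 groups of 5 libraries were RCF and control males and females of strain C57/Bl6 (C57 below) and of strain DBA. The labels give neither the animal nor the litter of a library, and no day or hour of collection, so a p-value here reflects only how libraries of a group spread, which may be technical.

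Immediate early genes are transcribed within minutes of a stimulus, without new protein synthesis, mostly through factors already bound at their promoters such as CREB and the serum response factor. In neurons, calcium entry during firing is such a stimulus, and the transcripts are short-lived, so their level in a tissue follows recent activity. Fos, Fosb, Junb and Fosl2 encode subunits of the dimeric factor AP-1, Egr1, Npas4 and Nr4a1 encode other transcription factors, Arc encodes a synaptic protein that promotes AMPA receptor internalisation, Dusp1 encodes a phosphatase that inactivates MAP kinases, and Ier2 encodes a nuclear protein of the rapid response.

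The promoters of Fos, Junb and Nr4a1 are shown because these genes varied together closely between libraries and 2 of them differed most firmly between groups. Each sequence is the 250 bases before the start that RefSeq gives on GRCm38.p6, and capitals mark TGACG or its reverse complement CGTCA, the core of the site that CREB binds. The windows are chr12:85473640-85473889 (plus strand), chr8:84978749-84978998 (minus strand) and chr15:101266596-101266845 (plus strand), and none overlaps an annotated exon. The Nr4a1 window lies inside the gene's GENCODE span, between exons, so it precedes an internal start and not the first one annotated.
Fos: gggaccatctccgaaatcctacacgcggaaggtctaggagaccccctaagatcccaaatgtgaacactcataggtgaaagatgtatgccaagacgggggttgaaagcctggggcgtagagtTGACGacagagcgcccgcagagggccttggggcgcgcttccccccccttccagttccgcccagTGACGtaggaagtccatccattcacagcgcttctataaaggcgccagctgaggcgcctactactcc
Junb: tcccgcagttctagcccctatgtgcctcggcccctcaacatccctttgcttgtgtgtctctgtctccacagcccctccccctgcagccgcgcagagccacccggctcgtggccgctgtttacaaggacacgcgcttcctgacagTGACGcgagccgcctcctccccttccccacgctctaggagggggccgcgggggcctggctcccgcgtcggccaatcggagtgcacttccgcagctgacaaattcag
Nr4a1: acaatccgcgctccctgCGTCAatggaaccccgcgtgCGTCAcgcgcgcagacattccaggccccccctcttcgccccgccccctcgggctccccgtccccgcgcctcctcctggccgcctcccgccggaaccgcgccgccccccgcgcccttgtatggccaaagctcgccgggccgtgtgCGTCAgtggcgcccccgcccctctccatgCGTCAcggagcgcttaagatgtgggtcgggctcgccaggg

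Of the members, 7 had a promoter in the RefSeq table, and TGACG stood on either strand in 6 of these 7: Fos (2 matches), Fosb (1), Junb (1), Nr4a1 (4), Npas4 (2) and Dusp1 (3). It stood in 17.8% of all 32851 promoter windows of the same length. The full palindrome TGACGTCA was found in the Dusp1 window, and 1.55% of all windows hold it. The Egr motif GCGNGGGCG was found in the windows of Fosl2, Fosb and Nr4a1, against 4.70% of all windows. The AP-1 site TGANTCA and the CArG box, the site of the serum response factor, had 0 matches in the 7 windows, against 6.75% and 1.47% of all windows. TATAAA was found in the Fos window and in 7.59% of all windows. The Npas4 and Fosl2 windows lie wholly in annotated exons (250 of 250 bases), so their matches are in transcribed sequence. The Dusp1 and Fosb windows hold 47 and 6 exon bases. Both strands were searched, and every TGACGTCA also counts as a TGACG. A match or its absence describes letters in these windows only, and sequence farther from the start was not searched.

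Total counts ran from 16913124 to 28179071 per library, with a median of 23571196. Dopamine neuron content varied widely: Th, which encodes the enzyme of the first step of dopamine synthesis, ran from 0.725 to 1644 CPM, a count scaled to library size with TMM factors, and the 13 dopamine markers summed to between 197 and 11148 CPM. Slc17a7, the vesicular glutamate transporter of forebrain neurons, stood at 502.5 CPM or above in 4 libraries (C57 control males 1 and 5, C57 RCF female 4 and DBA control female 3) and at 97.3 CPM or below in the other 36. C57 RCF female 4 also held the hindbrain gene Hoxb5 at 33.8 CPM, with Th at 0.725 CPM. Set against the libraries of the same group outside these 4 (3 for the C57 control males, 4 otherwise), Egr1, Arc and Fosl2 lay above all of them in each of the 4. Fosb, Junb and Dusp1 lay above in 3 and within the range in 1, and Nr4a1 above in 2 and within in 2. Ier2 lay above in 3 and below in 1, Npas4 above in 2, within in 1 and below in 1, and Fos above in 2 and below in 2. Results that rest on these 4 libraries are given with and without them. In bulk tissue, fewer cells of a type and less RNA per cell cannot be told apart.

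Per kilobase of exon, Egr1 was the most abundant member, at 14.1 ± 9.92 CPM per kb (SD, n = 40). Arc followed at 10.5 ± 8.16 and Junb at 8.62 ± 4.35 CPM per kb. Fos stood at 5.91, Dusp1 at 5.62, Nr4a1 at 4.77 and Ier2 at 3.63 CPM per kb. Npas4 at 1.87, Fosl2 at 0.826 and Fosb at 0.687 CPM per kb closed the order. For each member, mean ± SD overlapped that of the next in this order.

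Most members varied more between libraries of one group than other genes of like level did. The SD of log2 CPM within groups was 0.82 for Fosb, 0.78 for Fos, 0.68 for Egr1, 0.67 for Npas4 and 0.61 for Arc, against a median of 0.29 over all tested genes. It was 0.54 for Nr4a1, 0.53 for Fosl2, 0.44 for Junb and 0.42 for Dusp1. Of tested genes within 0.5 log2 CPM of the same level, 1.71% had a larger SD than Egr1, 2.71% than Arc and 3.35% than Fos. Ier2 was the steadiest member over the 40 libraries, with an SD of 0.32, and 56.1% of genes of like level varied more. Among the 36 libraries, the SD of Arc was 0.30, that of Dusp1 0.24, that of Ier2 0.28 and that of Fos 0.63. Of genes of like level, 1.63% then had a larger SD than Egr1, 2.93% than Fos, 9.05% than Arc, 24.2% than Dusp1 and 61.0% than Ier2.

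**Figure D1:**
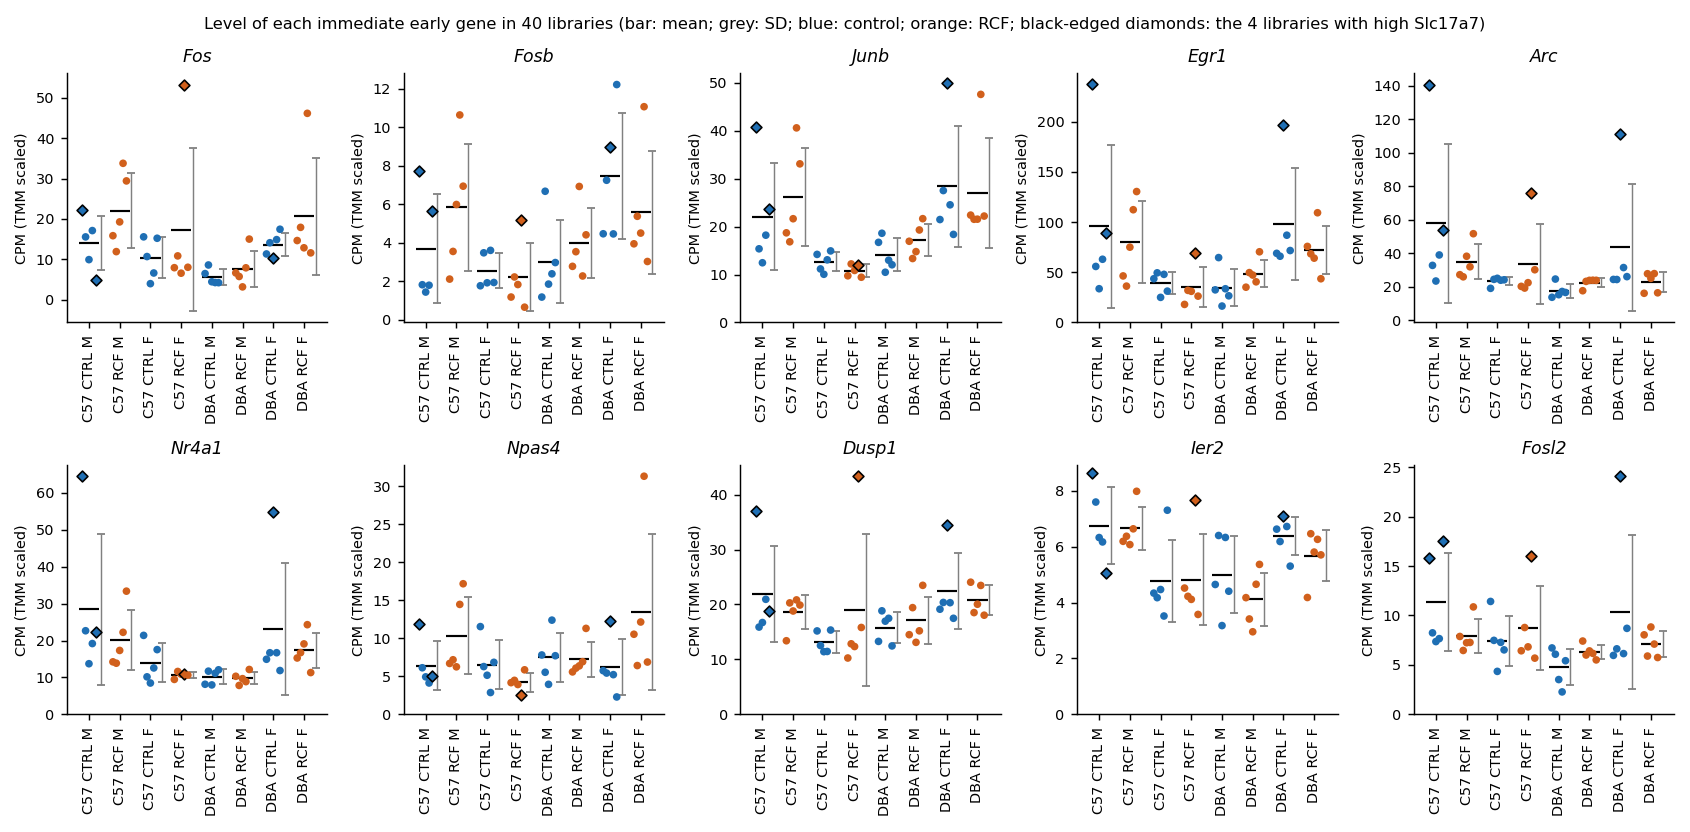
Level of each gene (CPM, y axis, linear) in the 5 libraries of each of the 8 groups (x axis), with the group mean as a bar and the SD in grey. Black-edged diamonds are the 4 libraries with high Slc17a7, which hold the highest Egr1 (237 and 197 CPM) and Arc (141 and 111 CPM) values.

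The study's own question was whether RCF and control mice differ in each strain and sex. No member differed between RCF and control in any of the 4 comparisons at an adjusted p below 0.05 (edgeR's quasi-likelihood test, Benjamini-Hochberg over all tested genes). The share of all tested genes past that threshold was 0.0108% in C57 males, 0.00542% in C57 females, 0.0163% in DBA males and 0.0163% in DBA females, so few genes passed anywhere. DESeq2 and limma voom also called 0 members in each. An unadjusted edgeR p below 0.05 was reached by 0 members in the first 3 comparisons and by 2 in DBA females, against 7.07%, 12.5%, 6.72% and 12.3% of all genes. The standard error of a member's log2 fold change was 0.20 to 0.53, with a median of 0.38. The lowest and highest libraries of RCF and control groups overlapped for all 10 members in all 4 comparisons, while 0.938%, 2.51%, 0.629% and 4.29% of all genes did not overlap.

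Fos, the classic marker of recent neuronal activity, had a higher mean after RCF than in controls in each strain and sex, without passing the test. In C57 males it stood at 15.8, 11.9, 19.3, 33.8 and 29.4 CPM after RCF and at 22.2, 15.5, 9.91, 17.1 and 4.93 CPM in controls. In C57 females it stood at 7.91, 10.8, 6.55, 53.3 and 8.02 CPM after RCF and at 15.6, 10.7, 3.95, 6.60 and 15.2 CPM in controls. The value of 53.3 CPM belongs to C57 RCF female 4, and the other RCF females of that strain lay inside the range of their controls.

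In DBA males Fos stood at 6.62, 5.73, 3.15, 7.88 and 15.0 CPM after RCF and at 6.45, 8.58, 4.42, 4.22 and 4.196 CPM in controls. In DBA females it stood at 14.6, 17.9, 12.8, 46.2 and 11.6 CPM after RCF and at 11.3, 14.1, 10.39, 14.9 and 17.4 CPM in controls. A single library, DBA RCF female 4, set the high end of the DBA females, and it is not among the 4 with high Slc17a7. The log2 fold change of Fos was 0.66 in C57 males, 0.73 in C57 females, 0.46 in DBA males and 0.60 in DBA females. Their mean was 0.61 (SE 0.25, 95% interval 0.10 to 1.13), with an edgeR adjusted p of 0.690 and an unadjusted p of 0.0208. For this mean, 0.0217% of all genes passed the adjusted threshold and 6.95% had an unadjusted p below 0.05. Without the 4 libraries the Fos mean was 0.32, and the C57 female value turned to -0.32. Single libraries carried much of the rest: the DBA female value was 0.067 without RCF female 4, the DBA male value 0.063 without RCF male 5, and the mean 0.35 without C57 RCF female 4. The mean effect of the other members was 0.11 for Fosb, 0.06 for Junb, -0.10 for Fosl2, -0.09 for Egr1, 0.28 for Npas4, -0.34 for Nr4a1, -0.19 for Arc, 0.08 for Dusp1 and -0.11 for Ier2.

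The other AP-1 genes had no common direction. Fosb, whose stable splice form accumulates in reward circuits, had log2 fold changes of 0.67 and -0.21 in C57 males and females and 0.41 and -0.42 in DBA males and females. Its SE was large, since Fosb ran from 0.646 to 12.2 CPM over the 40 libraries. Junb had 0.25 and -0.23 in C57 and 0.28 and -0.07 in DBA. Fosl2, a slower AP-1 subunit, had -0.51 and 0.24 in C57 and 0.39 and -0.53 in DBA.

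Among the other transcription factors, Egr1 had log2 fold changes of -0.26 and -0.16 in C57 males and females and 0.49 and -0.44 in DBA males and females. Nr4a1, an orphan nuclear receptor induced in dopamine and striatal neurons, was lower after RCF in each comparison, by values of -0.49, -0.39, -0.06 and -0.41 that did not pass the test. Without the 4 libraries with high Slc17a7, the C57 male and DBA female values of Nr4a1 changed sign. Npas4, which calcium entry induces selectively in neurons, had 0.69, -0.64, -0.04 and 1.12 in the same order. The DBA female value of Npas4 had an unadjusted p of 0.0116 and missed the adjusted threshold. In DBA females Npas4 stood at 10.5, 6.42, 12.1, 31.3 and 6.88 CPM after RCF and at 5.75, 5.44, 12.3, 5.23 and 2.29 CPM in controls, and both groups overlapped through the control library at 12.3 CPM. Without RCF female 4, at 31.3 CPM, the value of Npas4 was 0.54.

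Of the effectors, Arc had log2 fold changes of -0.73 and 0.52 in C57 males and females and 0.36 and -0.94 in DBA males and females. The DBA female value had an unadjusted p of 0.0288, and it was -0.23 without DBA control female 3: Arc stood at 16.1, 27.8, 25.03, 27.9 and 16.4 CPM after RCF and at 24.4, 24.3, 111, 31.5 and 26.1 CPM in controls. Dusp1 had -0.23, 0.52, 0.12 and -0.10, and Ier2 had -0.02, 0.02, -0.28 and -0.17, in the same order. Over the 10 members the median log2 fold change was -0.13, -0.07, 0.32 and -0.29 in C57 males, C57 females, DBA males and DBA females, against -0.02, 0.01, -0.01 and -0.01 over all tested genes.

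Marker content moved along with these comparisons. The forebrain glutamate neuron list had a median log2 fold change of -2.48 in C57 males and -1.82 in DBA females, with 0 of 11 markers past the threshold in either. The dopamine list had 1.01, 1.21, -3.14 and 1.62 in the 4 comparisons, with 0 of 13 past it. In DBA these fits lean on single libraries: the summed markers had medians of 371 CPM after RCF and 337 CPM in controls in males, where control male 3 reached 11148 CPM, and of 513.8 and 532.8 CPM in females, where RCF female 5 reached 5945 CPM. The part of this content in the members' values was not tested beyond the values without the 4 libraries and those with marker covariates, which are given further below. Without the 4 libraries the C57 male values of Egr1, Arc, Nr4a1, Dusp1 and Fosl2 and the DBA female values of Junb, Nr4a1, Dusp1 and Fosl2 changed sign, and still 0 members passed.

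**Figure D2:**
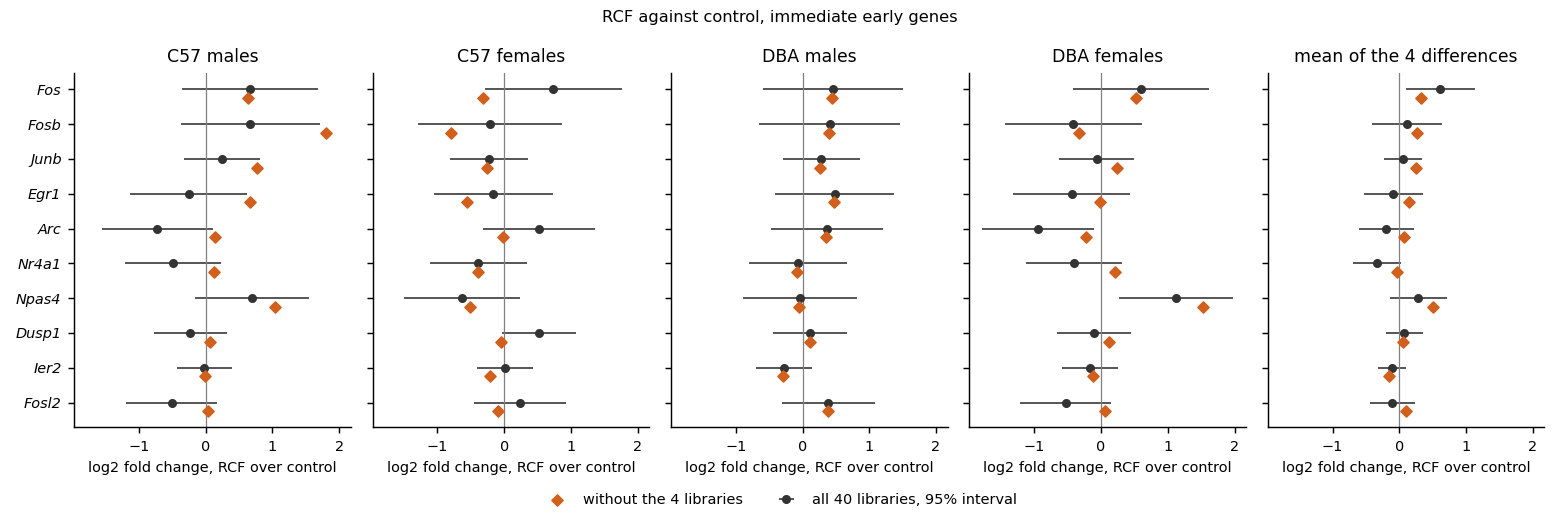
Log2 fold change of RCF over control (x axis) for each gene (y axis) in the 4 comparisons and their mean, with 95% intervals from all 40 libraries, and orange diamonds for the values without the 4 libraries with high Slc17a7. Only the Fos mean, at 0.61, has an interval above 0 in its panel, and Arc and Npas4 have intervals beyond 0 in DBA females.

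The RCF effects were then compared between sexes and between strains. No member passed in either interaction, where 0.00542% and 0.0108% of all genes did. By edgeR, 0 members reached an unadjusted p below 0.05 in either, where 8.48% and 6.0% of all genes did, and DESeq2 and limma voom also called 0. The smallest p for the sexes belonged to Fosb, whose RCF effect was lower in females than in males by a log2 value of -0.85 (edgeR adjusted p 0.660). For the strains it belonged to Npas4, with 0.51 more in DBA than in C57 (adjusted p 0.896). The other members lay between -0.42 (Egr1) and 0.26 (Dusp1) for the sexes, with Junb at -0.41, Nr4a1 at -0.12, Npas4 at -0.08, Fosl2 at -0.08, Arc at -0.03, Ier2 at 0.07 and Fos at 0.11. For the strains they lay between -0.23 (Fosb) and 0.23 (Egr1), with Ier2 at -0.22, Arc at -0.19, Fos at -0.17, Dusp1 at -0.14, Fosl2 at 0.06, Junb at 0.10 and Nr4a1 at 0.20.

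A pattern in the levels led to comparisons that were added after the values were seen: the difference between females and males ran in opposite directions in C57 and in DBA. RCF and control libraries were combined with equal weight, giving 10 libraries of each sex per strain. In C57 all 10 members were lower in females than in males, and in DBA all 10 were higher in females. Because the pattern was chosen for its values, the p-values that follow describe its size and are no independent evidence for it.

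Junb, a subunit of AP-1 at chr8:84974484-84978718 (GRCm38, minus strand, protein coding), showed it most firmly. In C57 males it stood at 18.7, 16.8, 21.7, 40.6 and 33.1 CPM after RCF and at 40.8, 15.4, 12.5, 18.2 and 23.6 CPM in controls. In C57 females it stood at 9.74, 12.2, 10.9, 11.96 and 9.44 CPM after RCF and at 14.2, 11.2, 10.1, 13.1 and 14.9 CPM in controls. All C57 males but 1 lay above every C57 female, and after RCF the sexes did not overlap.

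In DBA males Junb stood at 16.9, 13.3, 14.8, 19.3 and 21.7 CPM after RCF and at 16.7, 18.6, 10.5, 12.99 and 12.04 CPM in controls. In DBA females it stood at 22.4, 21.5, 21.6, 47.6 and 22.2 CPM after RCF and at 21.5, 27.5, 49.99, 24.6 and 18.4 CPM in controls. Here 9 of 10 females lay above all males but 1, the reverse of C57. Mean Junb was 11.8 ± 1.87 CPM in C57 females and 24.1 ± 10.37 CPM in C57 males (SD, n = 10 each), and 27.7 ± 11.4 CPM in DBA females and 15.7 ± 3.56 CPM in DBA males.

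Junb fell in C57 females relative to C57 males by 1.04 on the log2 scale (SE 0.20, edgeR adjusted p 0.0135), and it was the 1 member past the threshold there, where 0.130% of all genes passed. In DBA it was 0.83 higher in females (SE 0.20, adjusted p 0.0864), and 0 of 10 members passed, against 0.119% of all genes. The difference between the strains in this sex difference was 1.86 (SE 0.28, 95% interval 1.29 to 2.44, adjusted p 0.000896). The Junb gene overlaps the end of Prdx2 on the opposite strand. Since the strand setting of the counting is not given in the sources used here, reads of the overlap could have been counted for either gene.

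Egr1, a zinc finger factor at chr18:34859823-34864984 (plus strand, protein coding), ran in the same directions as Junb. In C57 it stood at 46.3, 36.2, 75.0, 112 and 130 CPM in RCF males and at 237, 55.8, 33.6, 62.9 and 89.2 CPM in control males. The C57 females stood at 17.95, 31.96, 31.0, 69.4 and 26.2 CPM after RCF and at 43.6, 49.4, 24.98, 47.9 and 31.2 CPM in controls. Both C57 sexes overlapped, with the 5 highest values in males.

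In DBA males Egr1 stood at 35.1, 49.6, 47.2, 40.5 and 70.4 CPM after RCF and at 32.5, 64.6, 16.3, 33.6 and 26.5 CPM in controls. In DBA females it stood at 75.7, 68.4, 64.1, 109 and 43.5 CPM after RCF and at 68.9, 66.0, 197, 86.9 and 71.6 CPM in controls. Every DBA control female lay above every DBA control male, while the RCF groups overlapped. Egr1 had a log2 difference of -1.23 in C57 (SE 0.31, adjusted p 0.161) and of 1.04 in DBA (SE 0.31, adjusted p 0.198). The difference between the strains was 2.27 (SE 0.44, 95% interval 1.37 to 3.16, edgeR adjusted p 0.0348).

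Nr4a1, at chr15:101254269-101274795 (plus strand, protein coding), also passed the threshold in the difference between the strains. In C57 males it stood at 14.2, 13.9, 17.3, 22.2 and 33.4 CPM after RCF and at 64.6, 22.7, 13.7, 19.2 and 22.2 CPM in controls. In C57 females it stood at 9.48, 11.6, 10.9, 11.1 and 10.6 CPM after RCF and at 21.4, 10.2, 8.499, 12.6 and 17.6 CPM in controls. The sexes did not overlap after RCF, and overlapped in controls.

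In DBA males Nr4a1 stood at 10.3, 7.85, 9.69, 8.88 and 12.2 CPM after RCF and at 8.16, 11.7, 7.99, 11.1 and 12.1 CPM in controls. In DBA females it stood at 15.3, 16.7, 19.1, 24.3 and 11.3 CPM after RCF and at 14.9, 16.7, 54.8, 16.7 and 11.9 CPM in controls. All but 2 of the DBA females lay above every DBA male. The log2 difference of Nr4a1 was -0.97 in C57 (SE 0.25, adjusted p 0.192) and 1.0 in DBA (SE 0.25, adjusted p 0.116), and the strains differed by 1.97 (SE 0.36, 95% interval 1.24 to 2.69, edgeR adjusted p 0.0173).

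Of all 18441 tested genes, 7 passed the test of this difference between strains, or 0.0380%, and 3 of the 7 were members. The other 4 were Egr3, Tob1 and the gene models Gm49192 and Gm2451. Egr3, a relative of Egr1, differed by 4.46 (SE 0.86, adjusted p 0.0348), and this value leans on 2 libraries, C57 control male 1 and DBA control female 3, at 99.7 and 87.2 CPM. Without the 4 libraries the group medians of Egr3 ran from 1.75 to 6.93 CPM.

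The remaining members pointed the same way without passing. Fos (chr12:85473890-85477273) was -0.39 in C57 and 1.36 in DBA, and the strains differed by 1.75 (SE 0.51, edgeR adjusted p 0.225). Every DBA control female stood above every DBA control male in Fos. Fosb (chr7:19302696-19310051) was -0.97 and 0.90, and Fosl2 (chr5:32135801-32157842) was -0.24 and 0.64. Npas4 (chr19:4984355-4990316) was -0.64 and 0.31, and the sexes did not overlap in C57 RCF libraries, at 2.54 to 5.86 CPM in females and 6.26 to 17.2 CPM in males.

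Arc (chr15:74669083-74672570), with -0.69 in C57 and 0.66 in DBA, differed between the strains by 1.35. Dusp1 (chr17:26505590-26562128), with -0.36 and 0.39, ran from 10.3 to 43.4 CPM over the 40 libraries. Its gene overlaps Ergic1 on the opposite strand. Ier2 (chr8:84661331-84662852), with -0.49 and 0.41, ran from 2.96 to 8.63 CPM, and the strains differed by 0.90 (SE 0.21, adjusted p 0.117). The members whose female and male libraries did not overlap were Dusp1 in C57 controls, Junb, Nr4a1 and Npas4 in C57 RCF, and Fos and Egr1 in DBA controls, with 0 in DBA RCF. Among all genes these shares were 2.52%, 1.84%, 2.20% and 2.41%.

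The members' median log2 difference was -0.66 in C57 and 0.75 in DBA, and 1.55 between the strains, against -0.001, 0.002 and 0.005 over all tested genes. An unadjusted p below 0.05 was reached by 7 members in C57, 9 in DBA and 10 in the difference between strains, against 8.51%, 10.8% and 10.1% of all genes. The members moved together between libraries (median r 0.52, described below), so these counts, and the shared direction, are not those of independent genes. Forebrain glutamate neuron markers moved in the same directions as the members, with medians of -1.78, 1.52 and 3.04 and 0 of 11 past the threshold. Of the 4 libraries with high Slc17a7, 2 are C57 males, 1 is a DBA female and 1 a C57 female. Dopamine markers had medians of 0.55, 0.13 and -0.41, with 0 of 13 past the threshold. Without the 4 libraries, 6 members passed in the difference between strains: Fos at 2.32, Junb at 1.47, Egr1 at 1.80, Nr4a1 at 1.35, Dusp1 at 0.77 and Ier2 at 0.99. With the mean levels of the dopamine, forebrain, hypothalamus and hindbrain lists as covariates, 4 passed: Fos at 2.44, Junb at 1.40, Egr1 at 1.74 and Nr4a1 at 1.17. Of the 8 hindbrain markers 1 was tested, so that covariate is a single gene. The shares of all tested genes that passed in these refits are not given here, so their counts of members have no background.

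Junb passed in the difference between strains under every alternative run, and with each of the 40 libraries left out in turn. Egr1 lost its call with 21 of the 40 left out singly (adjusted p up to 0.0880). Egr1 and Nr4a1 lost theirs with no filter on low counts, with the replicate number as a block and in limma voom. The call of Junb in C57 alone was lost without the 4 libraries (-0.79, adjusted p 0.0796), without C57 RCF male 4 (-0.93, adjusted p 0.0561), with no filter, in limma voom and with those covariates (-0.67, adjusted p 0.123).

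**Figure D3:**
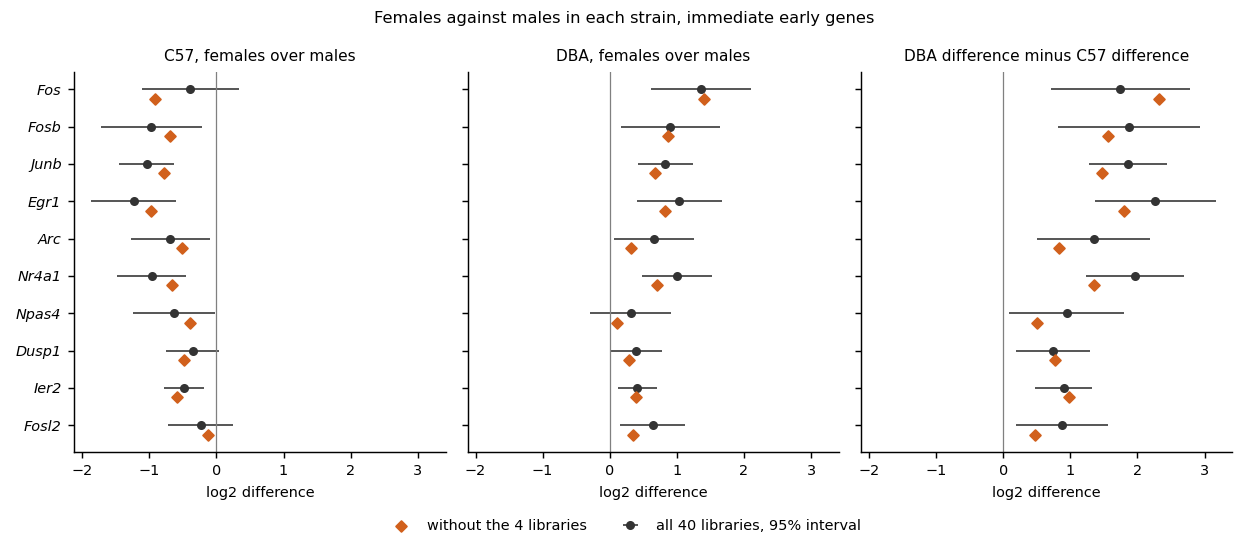
Log2 difference between females and males (x axis) for each gene (y axis) in C57, in DBA, and DBA minus C57, with 95% intervals from all 40 libraries and orange diamonds for values without the 4 libraries with high Slc17a7. All 10 points lie below 0 in C57 and above 0 in DBA, and Junb is at 1.86 in the last panel.

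Averaged over both sexes, no member differed between DBA and C57, either in controls, where 16.0% of all genes passed, or after RCF, where 23.8% did. In controls the log2 difference of DBA over C57 ran from -0.46 for Fos to 0.63 for Fosb, and after RCF from -0.63 for Fos to 0.58 for Npas4. Between these, in controls and after RCF, Junb had 0.26 and 0.36, Egr1 -0.07 and 0.16, Nr4a1 -0.38 and -0.18, Arc -0.41 and -0.60, Fosl2 -0.38 and -0.31, Dusp1 0.15 and 0.01, and Ier2 -0.01 and -0.23. Fosb had 0.40 after RCF and Npas4 0.07 in controls. Leaving out DBA control female 3, Arc at -0.77, Nr4a1 at -0.69 and Fosl2 at -0.68 passed in controls (edgeR adjusted p 0.0312, 0.0213 and 0.0175). Without the 4 libraries, Fosb passed in controls at 1.16 and Dusp1 after RCF at 0.29. The shares of all genes that passed in these refits are not given here. With both strains pooled, no member differed between females and males in controls or after RCF, where 0.0922% and 0.0759% of all genes passed. Their log2 differences ran from -0.12 (Npas4) to 0.43 (Fos) in controls, with Fosb at 0.39, Fosl2 at 0.24, Egr1 at 0.11, Junb at 0.10, Nr4a1 at 0.08, Arc at 0.00, Ier2 at -0.07 and Dusp1 at -0.11. After RCF they ran from -0.46 (Fosb) to 0.54 (Fos), with Junb at -0.31, Egr1 at -0.31, Npas4 at -0.20, Nr4a1 at -0.04, Arc at -0.03, Ier2 at 0.00, Dusp1 at 0.15 and Fosl2 at 0.16. By edgeR's unadjusted p below 0.05, the counts of members in these 4 comparisons were 0 and 1 (Arc, at -0.60 after RCF) between strains and 0 and 0 between sexes. All genes passed it at 28.6%, 35.5%, 10.3% and 7.26% in the same order. DESeq2 and limma voom called 0 in each.

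The members moved together between libraries. Each gene's log2 CPM was taken as a deviation from the mean of its group, which takes out differences between groups, and all 45 pairs of members were correlated over the 40 libraries. All 45 correlations were positive, from 0.13 to 0.82 with a median Pearson r of 0.52 and a median Spearman rho of 0.46. After Benjamini-Hochberg adjustment of permutation p-values over the 45 pairs, 35 passed 0.05 by Pearson's r and 33 by Spearman's rho. The members' correlations with all other tested genes had a median of 0.000351, and 3.90% of those lay above the members' median of 0.52.

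Over the 40 libraries the closest pairs were Junb and Nr4a1 (r = 0.82), Junb and Egr1 (0.81) and Egr1 and Arc (0.81), each with a permutation p of 1e-05, the smallest that 100000 permutations can give, and an adjusted p of 9e-05. The 4 libraries with high Slc17a7 carry part of this. Over the other 36, 42 of 45 correlations were positive, the median r was 0.42 and the median rho 0.38, and 22 pairs passed by Pearson's r and 14 by Spearman's rho. With the other tested genes the median was then 0.003725, and 5.29% lay above the members' median of 0.42.

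Among the 36 libraries the core of the group was Fos, Junb, Egr1 and Nr4a1. Fos and Junb, which can dimerise as AP-1, had r = 0.79 and rho = 0.74 (permutation p 2e-05, adjusted p 0.0009), and r was 0.74 without the 2 libraries farthest from the median. Junb and Egr1 had r = 0.73 and rho = 0.70 (adjusted p 0.0009), and 0.70 without the 2 farthest. Junb and Nr4a1 had r = 0.69 and rho = 0.73 (adjusted p 0.0009), and 0.69 without the 2 farthest.

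Npas4 joined through Nr4a1, with r = 0.68 and rho = 0.67 (permutation p 0.00016, adjusted p 0.00144), and 0.60 without the 2 farthest. Fosb, the low AP-1 member, was closest to Egr1, at r = 0.65 and rho = 0.63 (adjusted p 0.00315), and 0.55 without the 2 farthest. Fosl2 stood apart from some members, with r of -0.09 with Dusp1 and with Ier2, -0.02 with Arc and 0.07 with Npas4. With the others Fosl2 had r of 0.39 (Fos, adjusted p 0.0530), 0.38 (Egr1 and Nr4a1), 0.30 (Junb) and 0.21 (Fosb). The relation of Fos to Junb was 0.48 over 40 libraries and 0.79 over 36, and that of Fos to Nr4a1 went from 0.36 to 0.65. C57 RCF female 4, with Fos at 53.3 CPM, had Junb at 11.96 CPM and Nr4a1 at 11.1 CPM, inside the range of the other 4 libraries of its group.

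**Figure D4:**
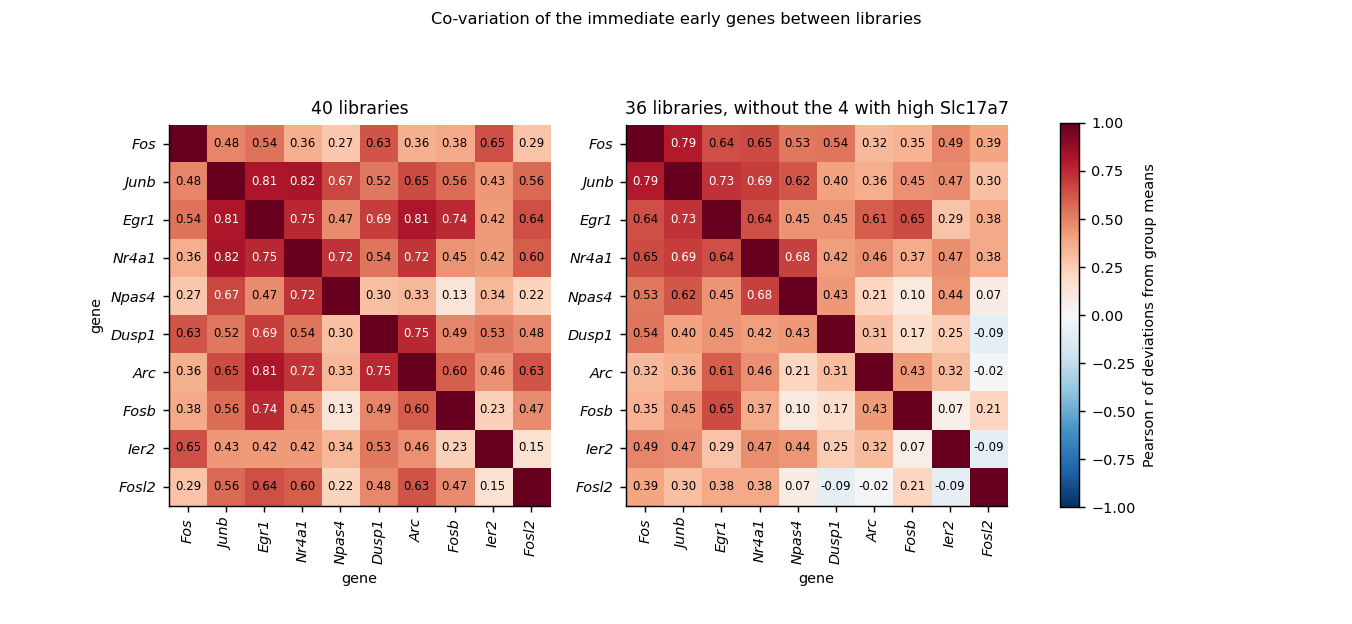
Pearson r of deviations from group means for each pair of genes (both axes), over 40 libraries on the left and over 36 on the right, with the colour scale from -1 to 1. The block of Fos, Junb, Egr1 and Nr4a1 holds r of 0.64 to 0.79 on the right, and Fosl2 holds the 3 values below 0.

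The members also varied with the cell content of the punch. Each was correlated with the mean level of 14 marker lists, 140 relations in all, with deviations from group means and permutations within groups. The dopamine neuron list was negatively correlated with all 10 members over the 40 libraries. The share of all tested genes with a negative correlation to this list is not given here, so the count has no background. For Egr1 r was -0.78 and rho -0.77 (permutation p 1e-05, the smallest possible, adjusted p 0.0014), and r was -0.74 without the 2 farthest libraries. For Fos r was -0.55 and rho -0.52 (adjusted p 0.0179), and -0.46 without the 2 farthest. Over 36 libraries these were -0.71 for Egr1 (adjusted p 0.0103) and -0.58 for Fos (adjusted p 0.0254), and Nr4a1 had -0.67 (adjusted p 0.0103). Punches with more dopamine neuron RNA thus held less RNA of these 3 genes.

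Forebrain glutamate markers were related to Arc (r = 0.80, rho = 0.68, adjusted p 0.00308), Nr4a1 (r = 0.71, rho = 0.50, adjusted p 0.0145) and Egr1 (r = 0.67, rho = 0.61, adjusted p 0.004) over 40 libraries. Without the 2 farthest libraries r was 0.61, 0.43 and 0.53 for these 3 genes. Over 36 libraries r was 0.35 for Arc, 0.33 for Nr4a1 and 0.37 for Egr1, so the relation rests largely on the 4 libraries. Fos had r of 0.00 with this list over 40 libraries and 0.04 over 36.

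Slc17a6, the glutamate transporter of midbrain neurons, was related over 36 libraries to Egr1 (r = 0.64, rho = 0.60, adjusted p 0.0103), Junb (r = 0.60, rho = 0.65, adjusted p 0.0063) and Fos (r = 0.53, rho = 0.66, adjusted p 0.0063), with r of 0.66, 0.61 and 0.60 without the 2 farthest. Over 40 libraries r was 0.31, 0.28 and 0.44. Hypothalamic and mammillary markers were related to Nr4a1 (r = 0.67, rho = 0.62, adjusted p 0.0103) and Npas4 (r = 0.58, rho = 0.58, adjusted p 0.0206) over 36 libraries, and r was 0.62 and 0.57 without the 2 farthest. With the same 4 marker lists as covariates the median r over the 45 pairs was 0.33, against 0.52 without them.

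**Figure D5:**
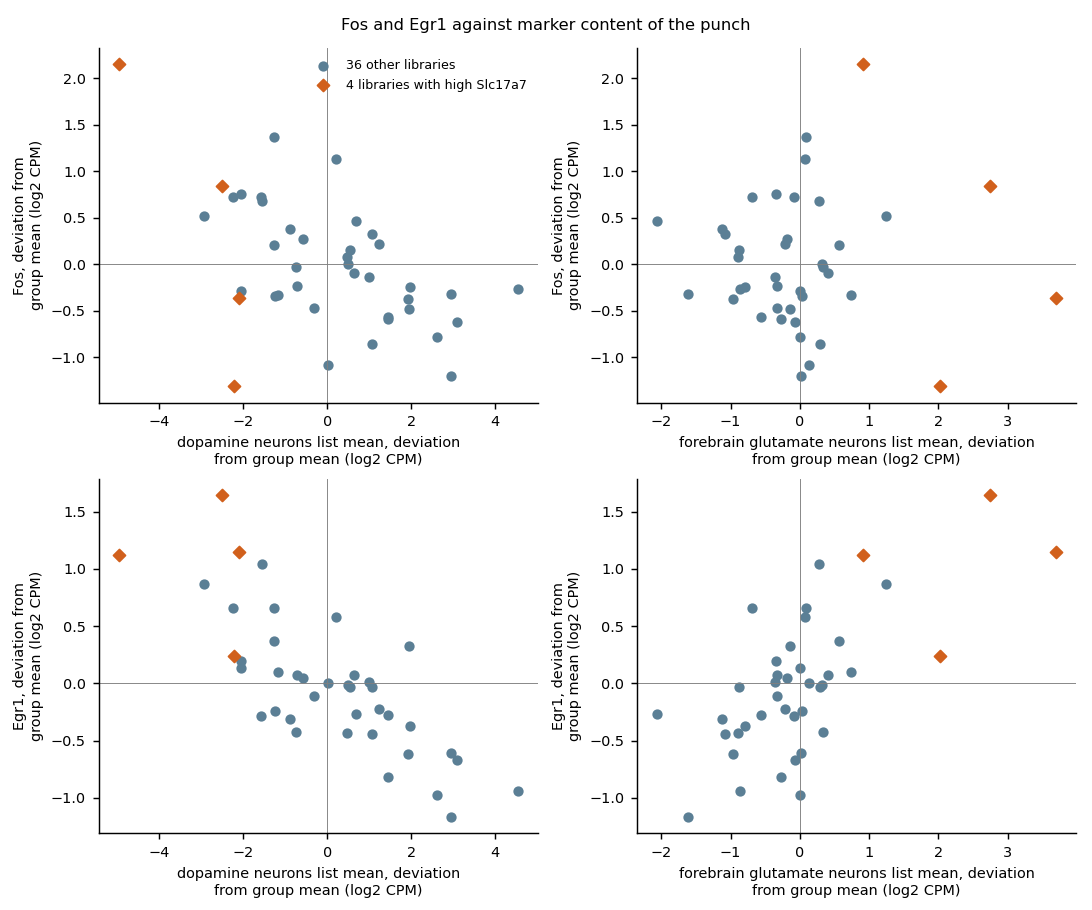
Deviation of Fos (upper row) and Egr1 (lower row) from the group mean (y axis, log2 CPM) against that of the dopamine neuron and forebrain glutamate neuron lists (x axis, log2 CPM), with orange diamonds for the 4 libraries with high Slc17a7. Egr1 declines along the dopamine axis (r = -0.78), while Fos shows no slope on the forebrain axis (r = 0.00).

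Other genes of the pathway came from 4 lists. Of 18 tested genes of other AP-1 and rapid response transcription factors, of 25 effectors of the rapid response, of 14 late response genes and of 28 upstream regulators, 0 passed in any RCF comparison. Their median log2 fold change for the mean RCF effect was -0.02, 0.00, -0.07 and -0.05 in that order, against -0.01 over all tested genes. In the difference between strains of the sex difference, 15 of 18, 19 of 25, 11 of 14 and 15 of 28 were positive, with medians of 0.27, 0.26, 0.19 and 0.05, and Egr3 was the single gene past the threshold. Fosl1 and Batf3 had too few counts to be tested.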

How the data were processed

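The authors deposited raw read counts for 55471 genes in 40 libraries, and 42664 genes had a count. Per the labels' protocols, RNA came from flash-frozen punches (Norgen column kit), a Tecan kit for mRNA kept strand (library type fr-secondstrand), and single reads of 75 nt were sequenced on an Illumina NextSeq. Tools named in the submitters' processing notes are bcl2fastq 2.20, cutadapt 1.11 and FastQC, with the builds GRCm38 and mm10. For the aligner, counter, strand setting, multimapping reads and annotation, the entry is: not given in the sources used here. Reads shared between overlapping or near-identical genes may therefore have been split or dropped. Symbols, coordinates and exon lengths were taken from GENCODE on GRCm38 by identifier.

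All libraries entered one edgeR 4.0.16 model with a mean per group (robust quasi-likelihood F test, TMM, R 4.3.3, 32 residual degrees of freedom). The filter filterByExpr left 18441 genes, and TMM factors were 0.905 to 1.09. Adjusted p-values are Benjamini-Hochberg over all tested genes per comparison, called below 0.05, and background shares use the same fits. Intervals of fold changes use the model's standard error. Log2 CPM used a prior count of 2. Correlations were taken on log2 CPM after subtracting each group's mean, with 100000 permutations inside groups (Python 3.11.15, scipy 1.17.1). The count test was tested on simulated data with known changes.

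Alternatives were RLE size factors, no filter on low counts, DESeq2 1.42.0, limma voom (limma 3.58.1), the compared libraries only, the means of 4 marker lists (dopamine, forebrain, hypothalamus, hindbrain) as covariates, the replicate number as a block, a prior count of 0.5, and each library left out in turn. Of the 8 hindbrain markers 1 was tested, so the hindbrain mean is the level of a single gene. The fits without 4 libraries, and the comparisons of sexes within strains with their difference, were added after seeing the data. The members and lists were chosen with earlier results of these data known. All members are named in each comparison. Of the other lists, genes past the threshold are named, or the 3 with the smallest p where none passed. The 10 named genes most like the members' mean are given. Libraries with the same replicate number did not deviate together, so the numbers were not taken as pairs.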

Additional observations from a re-analysis of the deposited data

Results flagged for a closer look

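In 80 groups of 5 libraries (10 genes in 8 groups), a library lay far outside the other 4, by Dixon's criterion, 24 times. For normally distributed values chance gives about 1 in 20 groups, but the criterion was applied here to CPM without logarithms. Skew of such values was not allowed for, and one library counts for several genes. C57 control male 1 was high in Egr1 (237 CPM), Arc (141 CPM), Nr4a1 (64.6 CPM), Npas4 (11.9 CPM) and Dusp1 (37.1 CPM). C57 RCF female 4 was high in Fos (53.3 CPM), Egr1 (69.4 CPM), Arc (76.0 CPM), Dusp1 (43.4 CPM) and Ier2 (7.66 CPM). DBA control female 3 was high in Junb (49.99 CPM), Egr1 (197 CPM), Arc (111 CPM), Nr4a1 (54.8 CPM), Dusp1 (34.5 CPM) and Fosl2 (24.1 CPM). These 3 are among the 4 libraries with high Slc17a7.

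DBA RCF female 4, which is not among those 4, was high in Fos (46.2 CPM), Junb (47.6 CPM) and Npas4 (31.3 CPM). The remaining cases were single genes. DBA RCF male 5 was high in Npas4 (11.3 CPM), and C57 control female 5 was high in Ier2 (7.31 CPM). Low values were found for Arc in C57 control female 1 (19.1 CPM) and DBA RCF male 1 (17.6 CPM), and for Dusp1 in C57 RCF male 1 (13.4 CPM).

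The difference between females and males itself differed between the strains, by the edgeR interaction test, for Junb (1.86 more in DBA on the log2 scale), Egr1 (2.27) and Nr4a1 (1.97). That comparison was added after the values were seen, so the test describes the size of the pattern and is no independent evidence for it.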

How the results depend on the processing

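The 4 libraries with high Slc17a7 and the marker covariates moved the results most, and a standard error of up to 0.53 limits what 5 libraries a group can show. In the RCF comparisons 0 members passed under every alternative run. RLE size factors, the compared libraries only and a prior count of 0.5 changed no count or median r by over 1.5 times. Causes of the shifts below were not tested. No share of all genes is given for these alternatives, so their counts of members past the threshold have no background.

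With marker covariates the log2 value turned in C57 males for Egr1 (0.46), Arc (0.13), Dusp1 (0.11), Ier2 (0.023) and Fosl2 (0.012), in C57 females for Junb (0.14), Arc (-0.046), Npas4 (0.083) and Ier2 (-0.028), in DBA males for Npas4 (0.15) and Dusp1 (-0.055), and in DBA females for Junb (0.080) and Dusp1 (0.18). The same held for the mean RCF effect of Egr1 (0.20), Arc (0.0063) and Fosl2 (0.15), for Npas4 between control strains (-0.11) and for Fosl2 between C57 sexes (0.077).

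Without the 4 libraries, values turned in C57 males for Egr1 (0.66), Arc (0.14), Nr4a1 (0.13), Dusp1 (0.065) and Fosl2 (0.038), in C57 females for Fos (-0.32), Arc (-0.019), Dusp1 (-0.041), Ier2 (-0.21) and Fosl2 (-0.096), in DBA females for Junb (0.24), Nr4a1 (0.21), Dusp1 (0.12) and Fosl2 (0.063), in the mean RCF effect for Egr1 (0.14), Arc (0.064) and Fosl2 (0.095), and for Egr1 between control strains (0.17). Under limma voom, Ier2 turned in C57 males (0.0046) and between control strains (0.0032), and Npas4 in DBA males (0.022).

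Members past the threshold between females and males of C57 numbered 0 without the low-count filter, with marker covariates, with limma voom and without the 4 libraries, and 3 with DESeq2. In DBA they numbered 4 with marker covariates, 3 with DESeq2 and 3 without the 4 libraries. In the difference between strains they numbered 1 without the filter, 5 with DESeq2 and 6 without the 4 libraries. Between strains, 1 member passed in controls and 1 after RCF without the 4 libraries. The median r over the 45 pairs was 0.33 with marker covariates and 0.42 without the 4 libraries.

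With the replicate number as a block, 1 member passed in the difference between strains, Ier2 turned in C57 females (-0.00023), and no other count of calls changed by over 1.5 times. Of 20 pairs of libraries with the same number in RCF and control, 2 had deviations correlated above 0.1 (r from -0.27 to 0.18), and 3 libraries correlated best with their own number.

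Leaving out each library in turn gave 0 to 3 members between control strains (3 without DBA control female 3), 0 to 2 between C57 sexes (0 without C57 RCF male 4, and 2 without C57 control male 3 or C57 RCF female 4, which add Egr1) and 2 to 6 in the difference between strains (6 without C57 RCF female 4). Values that turned ranged, in C57 males, for Egr1 from -0.51 to 0.39, Nr4a1 from -0.75 to 0.047, Dusp1 from -0.32 to 0.038 and Ier2 from -0.11 to 0.076. In C57 females they ranged for Fos from -0.32 to 0.93, Fosb from -0.79 to 0.017, Egr1 from -0.56 to 0.0046, Arc from -0.019 to 0.67, Dusp1 from -0.040 to 0.67, Ier2 from -0.21 to 0.22 and Fosl2 from -0.096 to 0.44. In DBA males they ranged for Npas4 from -0.26 to 0.20 and Dusp1 from -0.024 to 0.20, and in DBA females for Junb from -0.37 to 0.24, Nr4a1 from -0.57 to 0.21, Dusp1 from -0.18 to 0.11 and Fosl2 from -0.67 to 0.059. The mean RCF effect ranged for Fosb from -0.032 to 0.24, Junb from -0.020 to 0.14, Egr1 from -0.19 to 0.070, Dusp1 from -0.064 to 0.14 and Fosl2 from -0.19 to 0.041. Between control strains Egr1 ranged from -0.29 to 0.25, Npas4 from -0.14 to 0.24 and Ier2 from -0.060 to 0.092, and after RCF Dusp1 ranged from -0.071 to 0.29.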

Other observations

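The genes whose levels were most like the mean of the 10 members over the 40 libraries, by Pearson r of deviations from group means and outside the members, were Rgs4 (0.87), a regulator of G protein signalling, Ttc7b, Kcnh7, Calm2, Slc6a17, Osbp2, Enox1, Khdrbs3, Hivep2 and Galnt9. Over the 36 libraries they were Fgf14 (0.77), Efna3 (0.76), Galnt17 (0.76), Camk2a (0.75), a subunit of a calcium-dependent kinase of excitatory neurons, Iqsec2, Nell2, Rnf169, Eftud2, Cx3cl1 and Rbfox3. Over the 36, Egr1 (0.86), Junb (0.86), Nr4a1 (0.85) and Fos (0.84) were closest to that mean, of which they are part, and Fosl2 (0.38) was farthest of the members.

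Between strains, 0 members passed, while genes of the other lists did. From these lists of 20, 25, 14 and 28 genes, 7 genes passed in controls and 16 after RCF. Among all tested genes 16.0% and 23.8% passed, so such calls are common between these strains. Jund, an AP-1 subunit with steady expression, was higher in DBA than in C57 by 0.38 in controls and 0.35 after RCF (log2, edgeR adjusted p 8.9e-07 and 4.1e-06). Camk4, a calcium-dependent kinase upstream of CREB, was higher in DBA by 0.72 and 0.91. Klf2 had -0.61 and -0.80 and Arl4d had -0.88 and -1.35 in the same order. In controls Bdnf (-0.50), Rps6ka2 (-0.34) and Prkaca (0.16) also passed. After RCF, Klf4 (-0.60), Gpr3 (-0.82), Dusp4 (-0.78), Elk4 (-0.28), Rps6ka3 (-0.46), Errfi1 (-0.27), Cdkn1a (-0.62), Ptgs2 (-1.29) and Plk3 (-0.23) were lower in DBA, and Ep300 (0.31), Sik1 (0.33) and Crebbp (0.18) were higher.

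In the RCF comparisons, 0 genes of these lists passed in edgeR. The smallest p-values belonged to Mef2c (-2.48), Egr3 (-2.57) and Camk4 (-0.98) in C57 males, Bdnf (-0.73), Gpr3 (0.999) and Sgk1 (1.23) in C57 females, Acan (0.99), Rps6ka3 (-0.47) and Cdkn1a (-0.56) in DBA males, and Ep300 (0.37), Nr4a3 (-1.68) and Dusp6 (-1.16) in DBA females. For the mean RCF effect they belonged to Mef2c (-1.19), Camk2a (-0.82) and Egr3 (-1.20). For the difference of RCF effects, females minus males, they belonged to Rps6ka3 (0.59), Bdnf (-0.44) and Crtc1 (-0.33), and for DBA minus C57 to Sgk1 (-0.92), Sik1 (0.41) and Gpr3 (-0.65). Mef2c is also on the forebrain glutamate neuron list. For females against males they belonged to Egr3 (-2.71), Egr4 (-1.97) and Nptx2 (-1.65) in C57 and to Ep300 (-0.31), Nr4a3 (1.14) and Egr3 (1.76) in DBA, with 0 past the adjusted threshold in either. With strains pooled they belonged to Ep300 (-0.26), Bdnf (0.48) and Elk4 (-0.24) in controls and to Crtc1 (-0.29), Cdkn1a (0.43) and Sik1 (-0.23) after RCF, again with 0 past the threshold.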
